A study of Mus musculus with 9 samples.

Results

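The core circadian clock genes were followed by RNA sequencing of hypothalamus from Clic1 KO mice and their WT controls. The 10 genes were chosen by name and not by a cut-off on their values, though earlier results of these data were known. They were Per1, Per2, Per3, Cry1, Cry2, Arntl, Clock, Nr1d1, Nr1d2 and Dbp. All 10 were among the 14351 genes of the deposited table. The question was whether the KO and WT libraries, or single libraries, differed in the genes by which the time of day is read in a tissue.

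The mice were male, with 1 library each. The Clic1 KO group held replicates 2, 4, 6, 8 and 10 (5 mice) and the WT group replicates 1, 3, 9 and 11 (4 mice). The KO was a deletion in the whole body and not in one cell type, and the controls were WT littermates. All mice were on normal chow. The labels name the strain C57b/6J and frozen adipose tissue, whereas the study describes a CD-1 background and hypothalamus. The time of day at collection and the age of these mice are not given in the sources used here. Replicate 10 carries a WT title and treatment tag but a KO column code in its description. It was grouped as KO by that description, and the comparisons of the groups are given with and without it.

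The mammalian clock is a transcriptional feedback loop. CLOCK and BMAL1, the product of Arntl, pair and switch on genes through a DNA element called the E-box, among them the Per and Cry genes, Nr1d1, Nr1d2 and Dbp. The PER and CRY proteins return to the nucleus and inhibit that pair, while the NR1D1 and NR1D2 (REV-ERB) receptors repress Arntl. DBP acts on a further element, the D-box. As a result the transcripts of Arntl and of genes such as Dbp and Nr1d1 peak at opposite times of day. In the hypothalamus the suprachiasmatic nucleus holds the master pacemaker, and other nuclei run clocks with phases of their own.

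The promoters show how unevenly these elements are placed near the start sites. The 250 bases before each RefSeq start were searched on both strands (GRCm38.p6), and 9 of the 10 genes matched an entry of the promoter table, with 13 starts in all. Per2 did not. The motifs were the E-box (CACGTG), the E'-box (CACGTT), the D-box (TTATGNAA), the ROR element (TAGGTCA) and the cAMP response element (TGACGTCA), and matches of different motifs did not overlap in the genes followed. The windows of 5 genes are printed because they hold the most matches (Per1, Per3, Cry1) or belong to genes on which a result below turns (Nr1d1, Dbp). They are read 5' to 3' on the strand of the gene, with the matched bases in capitals. The regions are chr11:69098699-69098948, plus strand, for Per1, chr4:151044666-151044915, minus strand, for Per3, chr10:85185055-85185304, minus strand, for Cry1, chr11:98775378-98775627, minus strand, for Nr1d1, and chr7:45704997-45705246, plus strand, for Dbp.
Per1: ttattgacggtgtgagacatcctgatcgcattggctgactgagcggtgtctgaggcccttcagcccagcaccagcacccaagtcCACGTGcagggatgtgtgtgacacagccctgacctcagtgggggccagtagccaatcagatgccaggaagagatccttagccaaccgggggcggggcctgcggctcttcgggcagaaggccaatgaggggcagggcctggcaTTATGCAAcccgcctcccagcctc
Per3: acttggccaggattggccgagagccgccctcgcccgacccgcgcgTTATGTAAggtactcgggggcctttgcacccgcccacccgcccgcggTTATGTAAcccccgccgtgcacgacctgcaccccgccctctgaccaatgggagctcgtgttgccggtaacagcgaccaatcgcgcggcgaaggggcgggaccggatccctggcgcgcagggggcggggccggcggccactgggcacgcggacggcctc
Cry1: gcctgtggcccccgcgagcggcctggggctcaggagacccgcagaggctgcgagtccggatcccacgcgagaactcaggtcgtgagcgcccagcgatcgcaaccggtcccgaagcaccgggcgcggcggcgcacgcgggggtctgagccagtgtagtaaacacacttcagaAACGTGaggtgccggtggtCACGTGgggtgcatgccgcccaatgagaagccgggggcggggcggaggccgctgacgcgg
Nr1d1: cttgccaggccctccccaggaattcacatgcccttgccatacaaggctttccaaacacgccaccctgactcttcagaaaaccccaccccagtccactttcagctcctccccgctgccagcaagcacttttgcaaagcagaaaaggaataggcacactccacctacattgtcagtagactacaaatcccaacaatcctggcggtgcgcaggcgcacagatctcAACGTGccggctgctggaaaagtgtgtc
Dbp: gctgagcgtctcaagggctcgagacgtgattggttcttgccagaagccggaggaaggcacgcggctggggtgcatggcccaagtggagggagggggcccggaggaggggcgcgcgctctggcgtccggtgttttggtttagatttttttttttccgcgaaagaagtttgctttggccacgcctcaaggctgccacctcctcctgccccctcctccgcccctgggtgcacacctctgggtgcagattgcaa
With the last base before the start as position -1, Per1 held an E-box beginning at position -166 and a D-box at -24, and Cry1 held an E'-box at -79 and an E-box at -60. Per3 held a pair of D-boxes at -205 and -158, and Nr1d1 an E'-box at -28. Cry2, which is not printed, held an E'-box at -166. The windows of Arntl, Clock, Nr1d2 and Dbp held none of the 5 motifs, and no window held the ROR or the cAMP element. Thus 2 of 9 genes had an E-box, 3 an E'-box and 2 a D-box. Of 32851 promoter windows of that length, 6.02% held the E-box, 3.85% the E'-box, 3.07% the D-box, 2.23% the ROR element and 1.55% the cAMP element. These are matches of letters in one window and not measured binding.

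Total reads on the genes of the table, estimated from the steps between low values, ran from 5.47 to 20.8 M per library, with replicate 10 the deepest. Between 116 and 3973 reads per library lay behind each clock gene. Clic1, the deleted gene, reached at most 1.93 CPM in the KO libraries, replicate 10 included, and at least 3.58 CPM in the WT libraries. Replicate 10 stood apart from the other libraries. Over the 10611 genes whose mean reached 10 CPM, its value was above or below all other 8 for 66%, whereas each of those 8 was above or below the other 7 for 14.5% to 40% of genes. Of the hypothalamus markers 12 of 12 were measured, and 9 of 10 markers of the suprachiasmatic nucleus (Nms was not in the table). None of 8 adipose markers was in the table.

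No core clock gene passed the threshold between KO and WT mice. Of the 10 genes, 0 reached an adjusted p under 0.05 in limma with Benjamini-Hochberg adjustment over all genes, where 0.286% of all genes did, and 2 had an unadjusted p under 0.05, against 6.5% of all genes. Without replicate 10, 0 genes passed (0.606% of all genes) and 4 had an unadjusted p under 0.05 (10.5% of all genes). The fold changes were small. On the log2(CPM + 0.1) scale they ran from -0.18 for Clock to 0.31 for Dbp, with a median of 0.10, where the median of all genes was 0.00. Of the 10 genes 6 had a positive and 4 a negative fold change, and without replicate 10 these were 8 and 2. The 95% intervals reached from 0.148 to 0.302 on either side of the estimate, so that differences within those bounds were not resolved with these mice. In bulk hypothalamus, fewer cells of a type and less RNA per cell cannot be told apart.

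**Figure D1:**
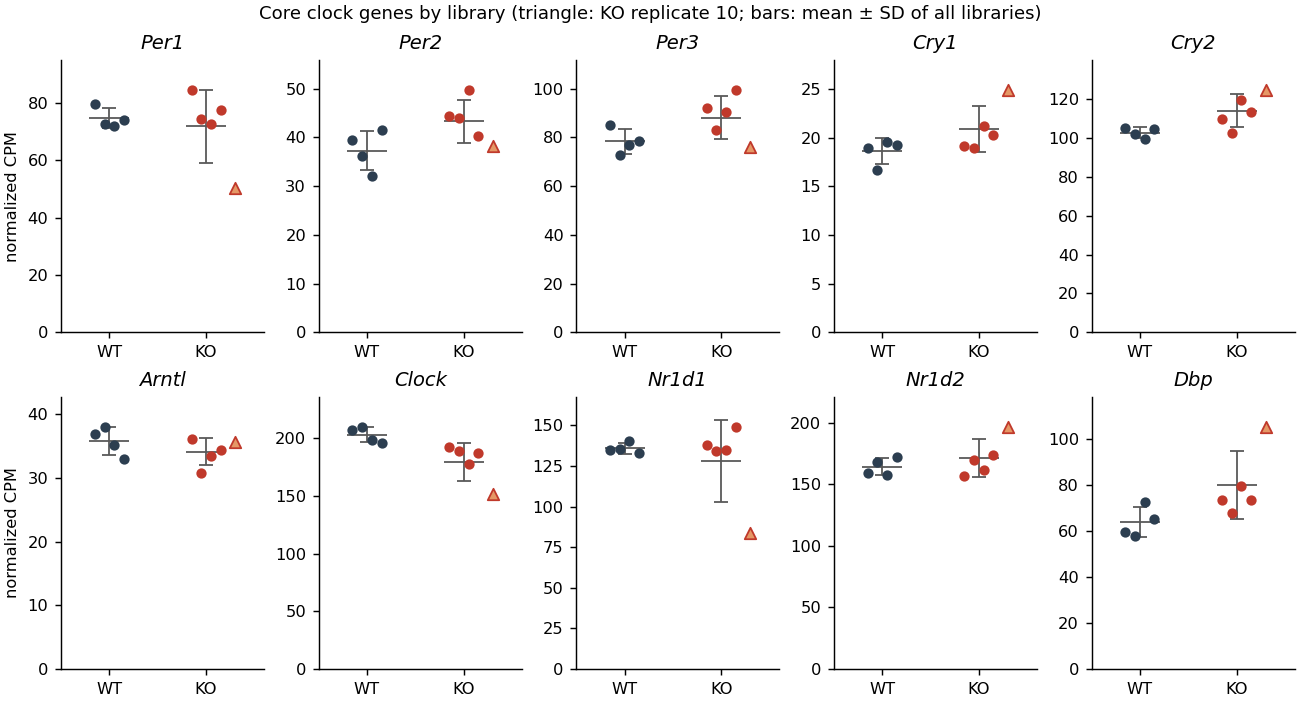
Normalized CPM (y axis, from 0) of each core clock gene in the WT and KO libraries. Each point is 1 mouse, the triangle is KO replicate 10, and the bars are mean ± SD of all libraries of a group. Clock is the gene whose groups do not overlap, and the triangle lies below the other points for Per1, Clock and Nr1d1 and above them for Cry1, Cry2, Nr1d2 and Dbp.

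The activators were taken first. Clock (ENSMUSG00000029238; chromosome 5, 76209868 to 76304792, minus strand) encodes the partner of BMAL1. The KO libraries (replicates 2, 4, 6, 8 and 10) had 193, 189, 178, 187 and 151 CPM of it, and the WT libraries (replicates 1, 3, 9 and 11) had 207, 209.8, 199 and 196 CPM. Each KO library lay below each WT library, and it was the 1 gene of the 10 whose groups did not overlap, as was the case for 3.41% of all genes. KO mice averaged 179.5 ± 16.7 CPM (SD, n = 5) and WT mice 203 ± 6.56 CPM (SD, n = 4), a log2 fold change of -0.18 (95% interval -0.35 to -0.02) with an unadjusted p of 0.0328 and an adjusted p of 0.720 in limma. The two-sided exact permutation test gave p = 0.0159, the smallest that 5 against 4 libraries allow. This follows from the lack of overlap and adds nothing to it. Without replicate 10, which had the lowest value, the log2 fold change was -0.12 (-0.22 to -0.02; adjusted p = 0.336 in limma). The groups were still apart, as in 6.06% of all genes. For the same reason the exact permutation test gave p = 0.0286, again the smallest possible.

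Arntl (ENSMUSG00000055116; chromosome 7, 113207465 to 113314126, plus strand), which encodes BMAL1, was at 36.2, 30.8, 33.5, 34.4 and 35.7 CPM in the KO libraries and at 36.9, 38.0, 35.2 and 33.1 CPM in the WT libraries, in the same order of replicates. The groups overlapped, and the estimate was -0.07 (-0.24 to 0.10) with all libraries and -0.09 (-0.25 to 0.08) without replicate 10. Npas2, which encodes a stand-in for CLOCK, was listed among the further clock genes and had a log2 fold change of -0.07 (adjusted p = 0.943 in limma), and of 0.05 (adjusted p = 0.920) without replicate 10.

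Among the inhibitors of the loop, the 3 Per genes gave estimates of both signs. Per1 (ENSMUSG00000020893; chromosome 11, 69095217 to 69109960, plus strand), whose transcript is also induced acutely by light and neuronal activity, was at 84.4, 74.2, 72.7, 77.4 and 50.2 CPM in the KO and at 79.7, 72.5, 72.0 and 74.1 CPM in the WT libraries. The groups overlapped, and replicate 10 was the lowest of all 9. The log2 fold change of -0.08 (-0.35 to 0.20) became 0.05 (-0.08 to 0.18) without that library, so its sign rested on 1 mouse.

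Per2 (ENSMUSG00000055866; chromosome 1, 91415982 to 91459324, minus strand) was at 44.4, 44.0, 49.6, 40.2 and 38.2 CPM in the KO and at 39.4, 36.2, 32.1 and 41.5 CPM in the WT libraries. The 3 highest values were KO and the 2 lowest WT, with overlap between. KO minus WT, the estimate was 0.22 (-0.00 to 0.43; unadjusted p = 0.0514 and adjusted p = 0.767 in limma), and the exact permutation test gave p = 0.0794. Without replicate 10 it was 0.26 (0.07 to 0.45), with an unadjusted p of 0.0100 and an adjusted p of 0.278 in limma.

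Per3 (ENSMUSG00000028957; chromosome 4, 151003652 to 151044665, minus strand), whose printed promoter holds a pair of D-boxes, was at 91.9, 82.9, 90.3, 99.3 and 76.1 CPM in the KO and at 85.3, 72.8, 76.9 and 78.5 CPM in the WT libraries. KO replicate 10 was the second lowest of the 9. Per3 had a log2 fold change of 0.16 (-0.02 to 0.35; adjusted p = 0.790 in limma), and 0.22 (0.08 to 0.36; unadjusted p = 0.00484 and adjusted p = 0.209 in limma) without replicate 10. In that second fit, Per3 had the lowest adjusted p of the 10 genes. The exact permutation test gave p = 0.111 with replicate 10 and p = 0.0571 without it.

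The products of the Cry genes carry most of the repression of CLOCK and BMAL1. Cry1 (ENSMUSG00000020038; chromosome 10, 85131700 to 85185064, minus strand) was at 19.2, 19.0, 21.2, 20.3 and 24.9 CPM in the KO and at 19.0, 16.7, 19.6 and 19.3 CPM in the WT libraries. Replicate 10 was the highest and the groups overlapped. For Cry1 the log2 fold change was 0.16 (-0.06 to 0.39), and 0.10 (-0.10 to 0.29) without replicate 10.

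Cry2 (ENSMUSG00000068742; chromosome 2, 92403646 to 92434043, minus strand) was at 109.7, 102, 119.6, 114 and 124 CPM in the KO and at 105, 102, 99.4 and 105 CPM in the WT libraries. Replicate 4 was the only KO library inside the WT range. The log2 fold change was 0.15 (-0.00 to 0.29; unadjusted p = 0.0520 and adjusted p = 0.767 in limma), with p = 0.0476 in the exact permutation test. Without replicate 10 it was 0.11 (-0.00 to 0.23), with p = 0.0857 in the exact permutation test.

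Of the output and stabilising genes, Dbp had the largest estimate. Dbp (ENSMUSG00000059824; chromosome 7, 45705088 to 45710203, plus strand) encodes a D-box activator and is one of the transcripts with the widest daily swing in many tissues. It was at 73.4, 68.0, 79.7, 73.7 and 105 CPM in the KO and at 59.7, 58.0, 72.8 and 65.4 CPM in the WT libraries. WT replicate 9 lay above KO replicate 4, and the other KO libraries lay above all WT libraries. KO mice averaged 80.01 ± 14.7 CPM (SD, n = 5) and WT mice 64.0 ± 6.69 CPM (SD, n = 4). On the log2 scale the difference was 0.31 (0.05 to 0.57; unadjusted p = 0.0244 and adjusted p = 0.695 in limma), and the exact permutation test gave p = 0.0317. Without replicate 10, the highest library, it was 0.21 (0.05 to 0.37; adjusted p = 0.310 in limma), and the exact permutation test gave p = 0.0571.

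Nr1d1 (ENSMUSG00000020889; chromosome 11, 98767932 to 98775333, minus strand), which encodes REV-ERB alpha, was at 138, 134, 135, 149 and 83.8 CPM in the KO and at 135, 136, 140.5 and 133 CPM in the WT libraries. Apart from replicate 10 the 8 libraries were close together, with the highest 1.12 times the lowest. Its log2 fold change was -0.12 (-0.42 to 0.19), and 0.03 (-0.07 to 0.13) without replicate 10. Nr1d1 shares 263 of its 3077 exon bases with Thra on the opposite strand, and no source used here states that reads were counted by strand. Thra was at 551 CPM in replicate 10 and at 338 to 402 CPM in the other libraries. For Dbp, 539 of 2993 exon bases are shared with Sphk2 on the opposite strand, which was at 27.6 CPM in replicate 10 and 34.8 to 44.1 CPM in the others. The part of these overlaps in the values was not tested.

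Nr1d2 (ENSMUSG00000021775; chromosome 14, 18204054 to 18239127, minus strand), which encodes REV-ERB beta, was at 157, 169, 161, 173 and 197 CPM in the KO and at 159, 168, 158 and 172 CPM in the WT libraries. Without replicate 10 the groups covered nearly the same range, and the log2 fold change was 0.01 (-0.10 to 0.11), against 0.06 (-0.10 to 0.22) with it.

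**Figure D2:**
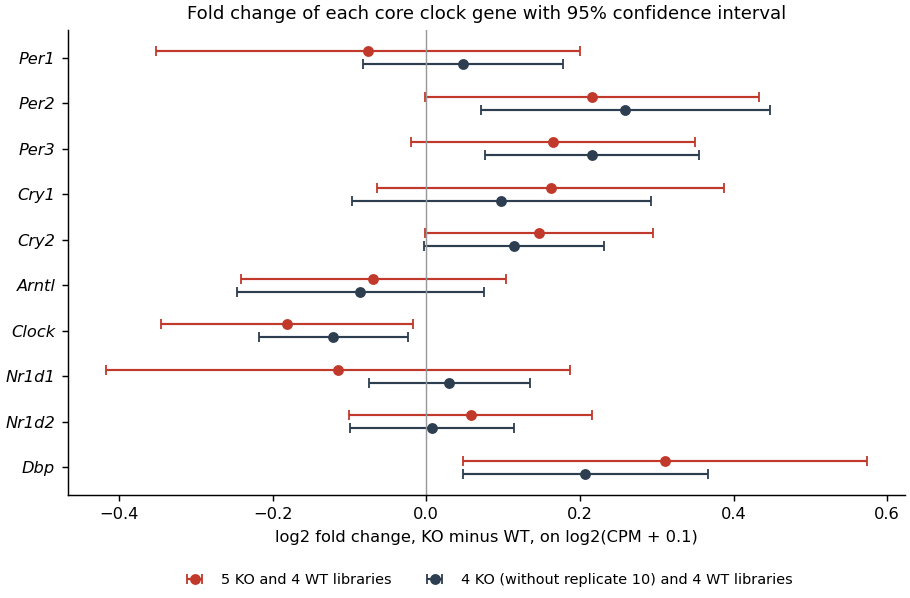
Log2 fold change of each core clock gene, KO minus WT (x axis, on log2(CPM + 0.1)), with 95% confidence intervals from limma. Red points use all 9 libraries and dark points leave out KO replicate 10. With all libraries the intervals of Clock and Dbp lie on one side of 0, and without replicate 10 also those of Per2 and Per3.

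Arntl and Clock had negative fold changes, and Per2, Per3, Cry1, Cry2, Nr1d2 and Dbp positive ones, with and without replicate 10. Nr1d1 was at 0.03 without replicate 10, while Per2, Per3 and Dbp were at 0.26, 0.22 and 0.21. None of these values passed the adjusted threshold. The intervals of Arntl, Cry1, Cry2 and Nr1d2 ran from negative to positive values in both fits. Whether clock phase differed between the groups was not tested. With replicate 10 grouped as WT, as its title says, Per2 was at 0.25 and Per3 at 0.22 (adjusted p = 0.684 and 0.624 in limma), whereas Dbp was at 0.06 and Clock at -0.04.

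Ratios within a library do not depend on its scaling. The ratio of Dbp to Arntl, which are in antiphase, was 2.03, 2.20, 2.38, 2.14 and 2.95 in the KO libraries and 1.62, 1.53, 2.07 and 1.98 in the WT libraries. KO replicate 2 fell inside the WT range and the other KO libraries above it. The ratio of Per3 to Arntl was 2.70 ± 0.142 (SD, n = 4) in KO mice without replicate 10 and 2.20 ± 0.203 (SD, n = 4) in WT mice, and these groups did not overlap. Among single genes, 6.06% did not overlap without replicate 10, but no share over ratios of other genes was computed. The groups overlapped for every other ratio computed, with or without that library. Replicate 10 itself was at 2.13, within the WT range of 1.92 to 2.38. The ratio of Nr1d1 to Arntl was 2.35 in replicate 10 and 3.57 to 4.35 in the other libraries. No test was made on ratios, since their genes are those described above.

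**Figure D3:**
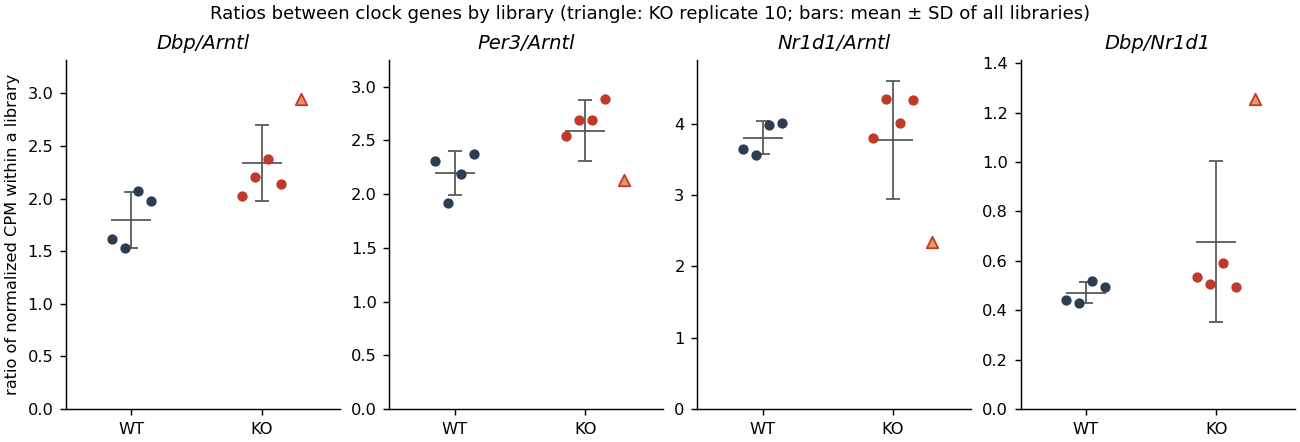
Ratios of normalized CPM between clock genes within each library (y axes, from 0). Each point is 1 mouse, the triangle is KO replicate 10, and the bars are mean ± SD of all libraries of a group. Replicate 10 is far from the other libraries for Nr1d1/Arntl and Dbp/Nr1d1.

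Library by library, replicate 10 stood apart in the core clock genes, as it did among genes of at least 10 CPM. Its value was beyond that of every other library for 7 of the 10 genes, above them for Cry1, Cry2, Nr1d2 and Dbp and below them for Per1, Clock and Nr1d1. The share of 7 in 10 was near the 66% of all genes of at least 10 CPM for which the same was true. Relative to the mean of the other KO libraries, it had 1.43 times the Dbp, 1.25 times the Cry1, 1.19 times the Nr1d2 and 1.12 times the Cry2. It had 0.604 times the Nr1d1, 0.651 times the Per1 and 0.811 times the Clock. Dbp and Nr1d1, both E-box targets with nearby daytime peaks, thus stood on opposite sides of the other libraries, with a Dbp to Nr1d1 ratio of 1.26 against 0.428 to 0.593 elsewhere. The paralogs Nr1d2 and Nr1d1 also parted, with a ratio of 2.34 in replicate 10 against 1.12 to 1.29. For these ratios no share over other pairs of genes was computed. The part of sequencing depth, in which this library also stood apart, was not tested.

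**Figure D4:**
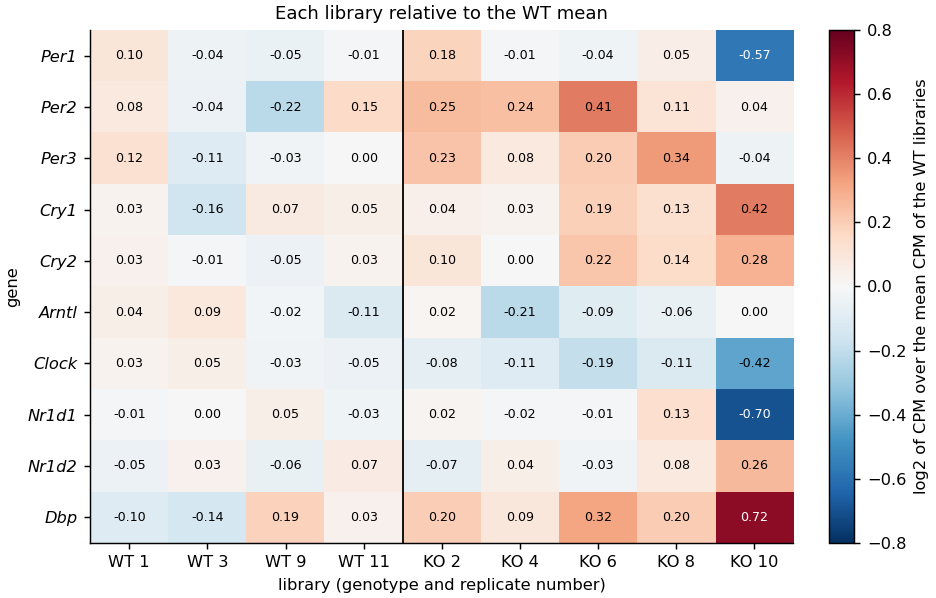
Log2 of the normalized CPM of each core clock gene (rows) in each library (columns) over the mean CPM of the WT libraries. Red is above and blue below that mean. The column of KO replicate 10 holds the darkest colours, blue for Nr1d1 and Per1 and red for Dbp.

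The other 8 libraries were close to each other. The highest value was 1.11 times the lowest for Nr1d2, 1.12 times for Nr1d1, 1.37 times for Dbp and 1.55 times for Per2. The SD within genotype on the log2 scale had a median of 0.0869 over the 10 genes, and of 0.104 over all genes that averaged 10 CPM or more. Clock was the tightest at 0.0480, smaller than in all but 5.39% of those genes, and Per2 the widest at 0.144, with 74% of genes below it. Dbp, at 0.124, had 63.4% of genes below it. These ranges describe mice of unknown collection times.

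Whether the genes vary together among the mice was asked for each pair, by correlation over the 9 libraries with an exact permutation test. Clock separated by genotype, so no pooled value was computed for its pairs, which left 36. Of these, 2 reached an adjusted p under 0.05 over the 36 pairs for Pearson's r. No share over pairs of other genes was computed. Replicate 10 was above or below all other libraries for 66% of the genes of at least 10 CPM. Cry1 and Dbp had r = 0.94 (exact permutation p = 0.000116, adjusted p = 0.00417) and Spearman's rho = 0.88 (exact permutation p = 0.00308, adjusted p = 0.111). Cry1 and Cry2 had r = 0.83 (exact permutation p = 0.00200, adjusted p = 0.0360) and rho = 0.70 (exact permutation p = 0.0433, adjusted p = 0.362). Replicate 10 was the highest library for Cry1, Cry2 and Dbp. Without it, r was 0.84 for Cry1 and Dbp (exact permutation p = 0.00357, adjusted p = 0.129) and 0.68 for Cry1 and Cry2 (exact permutation p = 0.0640, adjusted p = 0.461), and no pair passed. Without the 2 libraries farthest from the median of Cry1, replicates KO 10 and WT 3, r was 0.77 and 0.80. Both correlations stayed positive in these subsets. With KO replicate 4, 6 or 8 or WT replicate 1, 3 or 11 left out instead, 1 pair passed.

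Pairs of genes with opposite phase did not pass. Arntl and Dbp had r = -0.13 (exact permutation p = 0.733) and rho = -0.28 (exact permutation p = 0.463), and r = -0.44 (exact permutation p = 0.280) without replicate 10. Arntl and Per2 had r = -0.48 (exact permutation p = 0.188) and rho = -0.50 (exact permutation p = 0.178). Per1 and Nr1d1, both E-box targets and not a pair of opposite phase, had r = 0.93 (exact permutation p = 0.0324, adjusted p = 0.233). Without replicate 10 this r was 0.17. By rank the same pair had rho = 0.33 (exact permutation p = 0.385).

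Compared per kilobase of merged exons, the level over the 9 libraries was highest for the REV-ERB genes, with 42.7 ± 6.02 CPM per kb (SD, n = 9) for Nr1d1 and 31.1 ± 2.28 for Nr1d2. Dbp followed with 24.4 ± 4.68, Cry2 with 17.2 ± 1.36, Clock with 13.8 ± 1.28, Per1 with 13.0 ± 1.68, Per3 with 8.72 ± 0.906, Per2 with 6.94 ± 0.870, Cry1 with 5.96 ± 0.668 and Arntl with 4.64 ± 0.290 CPM per kb. Merged exons hold all annotated exons of a gene, 7.52 kb for Arntl and 3.34 kb for Cry1, so the order also depends on the annotation. Of the 9 neighbouring pairs in this order, Cry2 and Clock had ranges that did not overlap. Clock lay above Per1 in 7 of 9 libraries, Per2 above Cry1 in 7, and Nr1d1 above Nr1d2 in 8, replicate 10 being the exception there.

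The rest of the clock machinery was read from a longer list. Of 22 further genes, all measured, 0 reached an adjusted p under 0.05 in limma with Benjamini-Hochberg adjustment over all genes, where 0.286% of all genes did, and 0 an unadjusted p under 0.05, where 6.5% did. The fold changes were positive for 11 and negative for 11, with a median of 0.00. Without replicate 10, 0 passed the adjusted threshold (0.606% of all genes), and 2 had an unadjusted p under 0.05 (10.5% of all genes), Bhlhe41 at 0.16 and Fbxl21 at -0.28. The signs were then positive for 13 and negative for 9, with a median of 0.02. Tef and Hlf, the D-box relatives of Dbp, were at 0.07 and -0.05, and Nfil3, which opposes them at the D-box, at -0.11. Bhlhe40 and Bhlhe41, which repress at E-boxes, were at 0.08 and 0.11, and Ciart, another repressor of the loop, at 0.05. The kinase genes Csnk1d, Csnk1e and Gsk3b were at -0.00, 0.01 and -0.07. Without replicate 10, Tef was at 0.08, Hlf at 0.05, Nfil3 at -0.12, Bhlhe40 at 0.05 and Ciart at 0.11, so that Hlf changed sign, and the kinase genes were at -0.00, 0.03 and -0.01.

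Among the further genes with the smallest p were Fbxl21 and Tipin. Fbxl21, whose product is a ubiquitin ligase subunit for CRY proteins, averaged 15.7 ± 2.22 CPM in the KO (SD, n = 5) and 18.4 ± 1.44 CPM in the WT libraries (SD, n = 4), a log2 fold change of -0.24 (adjusted p = 0.788 in limma), and of -0.28 (adjusted p = 0.423) without replicate 10. Tipin, the partner of TIMELESS, had a log2 fold change of 0.35 with replicate 10 and 0.17 without it.

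Lists of genes that respond to the state of the animal at collection were counted beside the clock. Of 14 immediate early genes, which neurons switch on within minutes of activity, 13 were measured (Egr2 was not in the table). None passed the adjusted threshold in limma (0.286% of all genes did), and 5 had an unadjusted p under 0.05, against 6.5% of all genes. The fold change was negative for 13 of 13, where it was negative for 49.6% of all genes, and the median was -0.34. Without replicate 10 the median was -0.23, 13 of 13 were negative and 3 had an unadjusted p under 0.05 (10.5% of all genes). With replicate 10 as WT the median was -0.15, 12 were negative and 0 had an unadjusted p under 0.05. Egr1 was at 39.0, 55.4, 29.9, 43.0 and 26.7 CPM in the KO libraries and 53.8, 54.8, 54.1 and 58.1 CPM in the WT libraries, where KO replicate 4 was the only KO library in the WT range. Its log2 fold change was -0.56 (adjusted p = 0.506 in limma), that of Fos -0.91 (adjusted p = 0.622) and that of Junb -0.35 (adjusted p = 0.714). Without replicate 10 these were -0.43, -0.92 and -0.30 (adjusted p = 0.208, 0.260 and 0.453 in limma). Per1, which shares acute induction with the immediate early genes, was at -0.08 with all libraries and at 0.05 without replicate 10.

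Of 10 glucocorticoid-responsive genes, a reading of the daily corticosterone rhythm, 0 passed the threshold, and 2 with a positive and 2 with a negative fold change had an unadjusted p under 0.05, against 6.5% of all genes. Without replicate 10 these counts were again 0, 2 and 2, against 10.5% of all genes at the unadjusted threshold. Tsc22d3 (GILZ) ranged from 47.5 to 63.2 CPM in the KO libraries and from 41.2 to 45.7 CPM in the WT libraries, a log2 fold change of 0.34 (adjusted p = 0.363 in limma). Zbtb16 was at 23.3 to 28.8 and 18.7 to 22.5 CPM, also 0.34 (adjusted p = 0.378 in limma), and neither gene overlapped between groups, as was the case for 3.41% of all genes. Without replicate 10 they were at 0.28 and 0.34 (adjusted p = 0.123 and 0.143 in limma) and again did not overlap, as 6.06% of all genes did not. Mt2, a metallothionein, was at -0.48 (adjusted p = 0.657 in limma), and at -0.32 without replicate 10, and 5 of the 10 genes had a negative fold change. Of 9 genes that follow body temperature, Hspa1a (1.10, and 0.95 without replicate 10) and Hspa1b (-1.15, and -1.20) passed in opposite directions, and neither passed with replicate 10 as WT. They are near-identical copies whose reads can be divided between them. Both lie on chromosome 17, Hspa1b at 34956436 to 34959238 and Hspa1a at 34969190 to 34972156. Clic1, the deleted gene, lies near them on that chromosome, at 35049966 to 35058749. The part of this position in their values was not tested. Cirbp, the cold-inducible RNA-binding protein gene, was at 0.13 (adjusted p = 0.788 in limma), and at 0.14 without replicate 10.

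**Figure D5:**
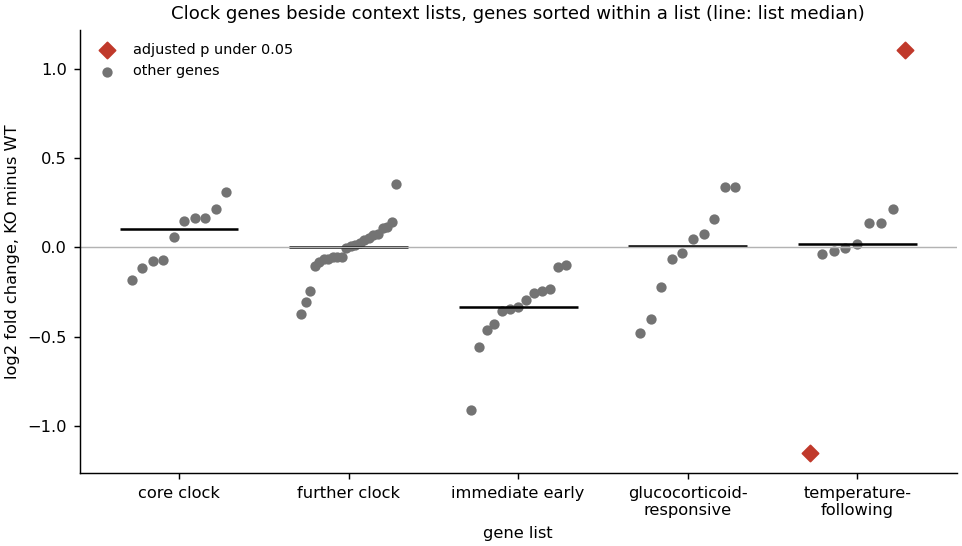
Log2 fold change, KO minus WT (y axis), of each gene of the core clock list and of 4 further lists (x axis). Points are genes sorted within a list, the line is the list median, and red diamonds have an adjusted p under 0.05 in limma. The core and further clock genes lie around 0 (medians 0.10 and 0.00), the immediate early genes below it (median -0.34), and Hspa1a and Hspa1b are the 2 diamonds.

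Markers of cell types were read beside these counts. Of the 9 suprachiasmatic markers measured, 0 passed the threshold, and 2 had an unadjusted p under 0.05 in limma, where 6.5% of all genes did, Rgs16 (0.38) and Lhx1 (0.35). Without replicate 10 the count was also 2, with these genes at 0.34 and 0.31, and with replicate 10 as WT it was 0. Their summed level ran from 412 to 513 CPM in the KO and from 401 to 496 CPM in the WT libraries, and replicate 10 had the 412 CPM. Most of that sum was Zfhx3, at 292 to 396 CPM in the KO and 304 to 381 CPM in the WT libraries. Replicate 10 had the 292 CPM, so its low sum reflects this gene. Vip, the peptide of the ventral nucleus, ran from 8.44 to 19.7 CPM in the KO and from 7.30 to 12.8 CPM in the WT libraries. For Vip, replicate 10 was the highest, with the 19.7 CPM. Avp, a peptide gene under clock control in the suprachiasmatic nucleus but also made in other hypothalamic nuclei, was the 1 hypothalamus marker of 12 to pass, with a log2 fold change of 0.90 (adjusted p = 0.00270 in limma), and 0.82 without replicate 10. Of 4 markers of pituitary and pars tuberalis, a tissue with a strong clock of its own, Tshb and Cga were measured, and Gh and Prl were not in the table. Their sum ran from 4.22 to 15.6 CPM in the KO and from 10.7 to 26.2 CPM in the WT libraries, with log2 fold changes of -1.14 (adjusted p = 0.191 in limma) and -1.42 (adjusted p = 0.822), and of -1.06 and -1.16 without replicate 10. Tshb did not overlap between groups, at 3.35 to 7.12 CPM in the KO and 7.98 to 16.1 CPM in the WT libraries. This was the case for 3.41% of all genes. Cga did overlap, at 0.366 to 8.44 CPM in the KO and 2.07 to 10.1 CPM in the WT libraries. The part of tissue makeup in the clock values was not tested.

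The genes whose values ran closest to those of Dbp were found as a description, over the 8 libraries other than replicate 10, with the mean of each genotype removed. The 10 with the highest Pearson's r were Ppp1r11 (0.98), Lrrc4b, Chid1, Rpsa, Obsl1, Zcchc24, Urgcp, Yipf1, Slc25a22 and Dact2 (0.95). None of the core clock genes was among them. Cry1 ranked 424 of the table (r = 0.78), Cry2 4052 (0.31), Nr1d1 4637 (0.25) and Clock 13856 (-0.75).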

How the data were processed

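RNA of the hypothalamus was sequenced from TruSeq libraries. Per the labels and the study's methods, the authors trimmed the reads with Trimmomatic 0.38, aligned them to GRCm38.p6 with STAR 2.5.1a and estimated gene counts with RSEM 1.3.0. They removed genes with low CPM and scaled the libraries with edgeR (TMM), and the deposited signal is the resulting normalized CPM. The authors' comparison table, whose columns are log2 fold changes, a moderated score and p-values, was used for gene symbols only. For values up to 2.5 CPM, 80.9% to 86.3% per library lay within 0.03 of a whole read, so the stated totals of reads are approximate. There was 1 column that matched no sample and was not used.

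Values were taken as log2(CPM + 0.1) and fitted over 14351 genes by limma (version 3.58.1, R 4.3.3), using lmFit and a trended eBayes with genotype alone. The p-values were adjusted by the Benjamini-Hochberg method, with a threshold of 0.05. The intensity trend stands in for the voom weights of the study. Fold changes on this scale understate those of low genes. Two-sided exact permutation tests were run with scipy 1.17.1, and the limma step was first tested on simulated data. Nothing in the labels ties libraries to separate litters or days, and p-values measure the spread between these mice. Levels per kb used merged exons of GENCODE M21 on GRCm38, which also gave gene positions. Promoters came from RefSeq (GRCm38.p6).

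The genes followed, the lists and the tests were chosen with earlier results of these data known. Besides the core genes, the text names, in the further clock list and in the immediate early, glucocorticoid and temperature lists, the genes past the threshold and the 3 with the smallest p (1 of the further clock genes is not reported here), the 10 genes closest to Dbp, Clic1 and Avp. Other clock genes were named for their role and the remaining markers after their values were seen. Marker lists for cortex, thalamus, striatum, choroid plexus, astrocytes, oligodendrocytes, microglia and endothelium were also counted, and 0 of their genes passed the threshold. The alternatives changed the pseudocount, the filter on low values, the scaling, the trend, the weights of the libraries or the group of replicate 10, or left out 1 library.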

Additional observations from a re-analysis of the deposited data

Results flagged for a closer look

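Within the KO group, Dixon's criterion put 1 library far from the other 4 for 4 genes, and each time it was replicate 10. In all 48 sets of values were examined, and chance gives about 2.4 such cases. Replicate 10 was also above or below all other 8 libraries for 66% of the genes whose mean reached 10 CPM. Nr1d1 was at 83.8 CPM in that library and at 134 to 149 CPM in the other KO libraries, and it was the 1 core clock gene among the 4. Tipin was at 23.3 CPM against 10.3 to 13.9, Hspa1a at 17.5 CPM against 9.68 to 11.8, and Avp at 255 CPM against 189 to 199.8.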

How the results depend on the processing

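The count of core clock genes past the adjusted threshold was 0 of 10, and that of further clock genes 0 of 22, in each of the 18 alternatives run. Of 180 refitted fold changes of the core genes 173 kept their direction and 7 reversed. Per1 was at 0.011 with sample weights, 0.16 with replicate 10 as WT and between -0.14 and 0.048 as each library was left out. Nr1d1 was at 0.020, 0.17 and between -0.18 and 0.030 in the same fits. With replicate 10 as WT, Nr1d2 was at -0.044 and Tipin at -0.044. Of 250 refits of the other named genes 232 kept their call and direction, 16 lost the call, 1 gained it and 1 reversed. Over all genes the count of 41 became 27 under a floor of 5 CPM on the mean, 135 with sample weights, 5 with replicate 10 as WT, and 18 (without WT replicate 1) to 87 (without KO replicate 10) as each library was left out. For the context lists the count of 2 became 1 with no trend, 4 with sample weights, 0 with replicate 10 as WT and 1 to 2 as libraries were left out. The count of 2 pairs became 0 by Spearman's rho, 1 with genotype means removed, 0 without KO replicate 10 and up to 3 without the other libraries, a set added after the data were seen. The cause was not tested. No paired analysis was possible because the groups share no replicate numbers. The lowest counts, 116 reads of Cry1, give a counting error of up to 9.28% of the value.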
